A study of Mus musculus with 9 samples.

Results

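The genes examined encode proteins of the synaptic vesicle and of the active zone, the patch of presynaptic membrane where vesicles fuse. The list held 48 genes, of which 47 could be matched to a transcript, out of 33984 annotated genes with a transcript in the count files. The remaining gene, Cplx2, is not analysed here. Each gene was followed through its transcript with the highest mean count over the 9 libraries. Membership was set by gene name, not by a cutoff on measured values, but the list was chosen with earlier results of these data known. Layers A, B and C of the piriform cortex of wild-type C57BL/6 mice, aged 8 weeks by the labels (the study's methods give an older age), were collected from sections by laser-capture micro-dissection, with 3 libraries from each layer. No agent or altered allele distinguished the groups, which by the labels differ in the layer cut out. The labels give no key from the letters to the numbered layers of this cortex, so the letters are used as they stand. Nothing in the labels ties a library to an animal, and the p-values below therefore measure only the spread between these libraries.

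At a synapse, vesicles filled with transmitter are tethered by synapsins, docked and primed at the active zone by RIM, Munc13 and ELKS proteins between the large scaffolds Bassoon and Piccolo, and fused by SNARE proteins when calcium binds synaptotagmin. Complexins and tomosyn regulate the SNARE complex, and NSF with its SNAP adaptors takes it apart for another round. The piriform cortex is a simple cortex with a superficial layer of incoming olfactory fibres and dendrites above dense and then looser layers of cell bodies. Most mRNA for presynaptic proteins lies in the cell bodies, whereas the proteins lie in axon terminals that can be in another layer.

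Counts of reads per transcript were scaled to CPM, counts relative to library size, with TMM library factors, which ranged from 0.467 to 1.63. Total counts were 23104306 to 76471683 per library, and 3 counts, used here as a floor for detection, corresponded to 0.0256 to 0.254 CPM. Mitochondrial transcripts took between 56.4% and 72.6% of the counts of layer A, between 13.1% and 30.1% of layer B and between 21.2% and 59.0% of layer C. The third layer B library stood apart from the other two. It was the highest of its layer for 32 of the 47 genes (43.1% of all 56416 tested transcripts) and the highest of all 9 libraries for 15 (20.5% of all). Where leaving it out changed a call or a direction for one of the 47 genes between layer A and another layer, the value without it is given. The exceptions are Stxbp5, Pclo and Erc2, which did not pass against layer B without it and for which only the loss is stated. The layers also differed in markers of other cells. All 10 astrocyte markers had higher levels in layer A than both other layers, and their summed level was between 4950 and 10471 CPM in layer A, 686 and 1158 in layer B, and 1228 and 1687 in layer C. Of 13 endothelial, mural and meningeal markers, 13 were higher in layer A than layer B and 12 than in layer C, with sums of 283 to 425, 20.0 to 63.3 and 53.5 to 72.9 CPM in layers A, B and C. Of 8 microglial markers, 6 were higher in layer A than layer B and 6 than in layer C (sums of 130.3 to 168, 20.8 to 55.7 and 44.7 to 66.1 CPM). Of 8 pan-neuronal markers, 4 were lower in layer A than layer B and 3 than in layer C, and the others were not lower at this threshold. In each comparison 7 of the 8 had a negative log2 fold change, and Map2 had values of 0.66 and 0.28 that did not pass. Their sums, of which Map2 made up a large part, overlapped at 639.9 to 1085, 735 to 1290.3 and 829 to 1049 CPM. Of 8 glutamatergic markers, 3 were lower and 1 higher in layer A than layer B, and 5 lower and 1 higher than in layer C. Their sums, of which Camk2a made up a large part, were highest in layer A. They were 2341 to 4235, 1192 to 1259 and 1170 to 1703 CPM in layers A, B and C. Of 10 GABAergic markers, 2 were higher and 1 lower than in layer B, and 3 were lower than in layer C. Of 8 oligodendrocyte markers, 1 was higher than in layer B and none differed from layer C. A single marker was without counts in a layer A library (Pvalb) and a single marker in a layer C library (Acta2). The part of these differences in the results below was not tested.

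Many presynaptic genes were lower in layer A than in layers B and C, and nearly all others did not pass the test. Against layer B, 21 of the 47 were lower in layer A at an adjusted p under 0.05, 1 was higher and 25 did not pass. By the same rule 5.83% of all tested transcripts were lower in layer A and 10.7% higher. Against layer C, 21 were lower, 1 was higher and 25 did not pass, beside 4.35% lower and 6.98% higher among all transcripts. With 1 transcript tested for each gene, the shares of genes lower in layer A were 8.58% against layer B and 6.69% against layer C. The median log2 fold change of the 47 genes was -0.98 against layer B and -1.08 against layer C, beside medians of -0.12 and -0.01 for all tested transcripts. The 8 pan-neuronal markers had medians of -1.05 and -0.99, near those of the 47 genes, and the 8 glutamatergic markers of -1.29 and -1.61. In 23 genes every layer A library was below every library of layers B and C (9.5% of all transcripts), and in 1 every layer A library was above (12.7%). These genes were abundant, with a median of 51.5 CPM over the libraries against 2.22 CPM for all tested transcripts. In such dissected tissue, fewer cells of a type and less RNA in each cell cannot be told apart.

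The comparisons with layers B and C share the layer A libraries and are not independent. Of the 21 genes lower than in layer B, 13 passed in each of the 9 fits that left out 1 library, and the count ranged from 15 to 21 in those fits. It was 20 without the third layer B library. The comparison with layer C depended more on single libraries. Its count of 21 fell to 5 without the first layer C library, to 8 without the first and to 10 without the second layer A library, and rose to 27 without the third layer B library, and 4 genes (Synpr, Sv2b, Syt1 and Nsf) passed in all 9 such fits. Tested for any difference between layers, 22 genes passed (14.3% of all transcripts), and 12 and 13 did without the first and the second layer A library.

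**Figure D1:**
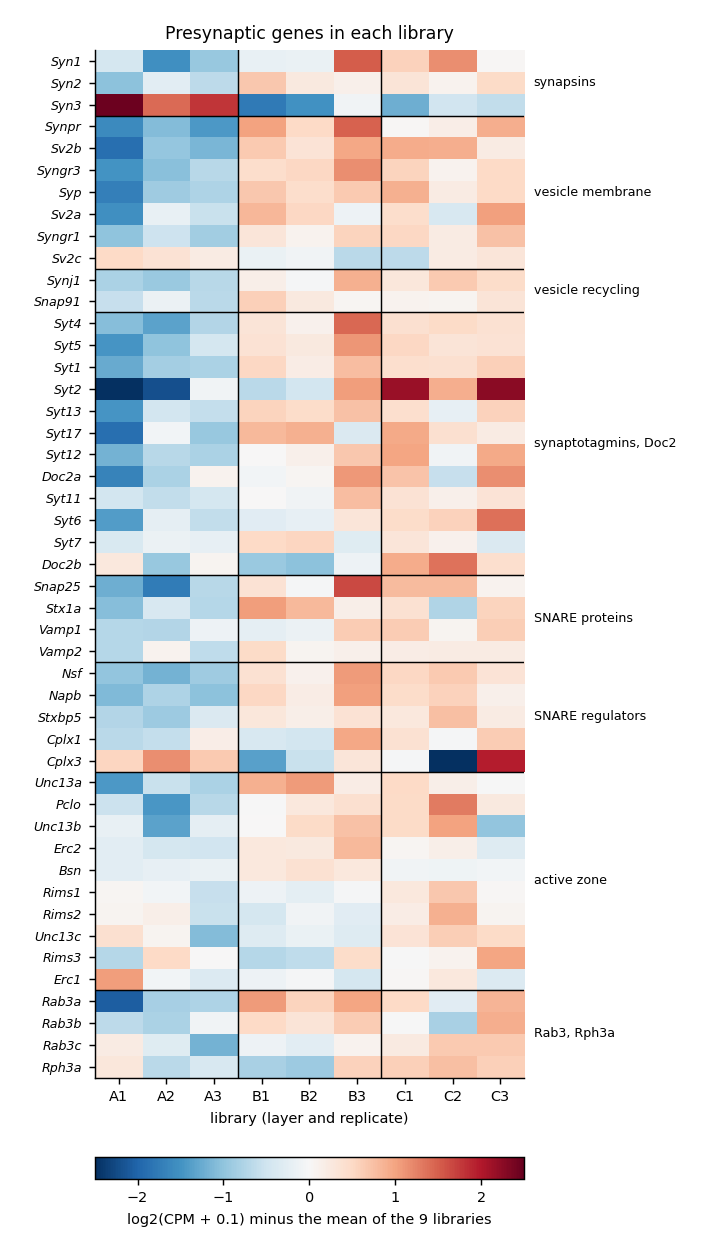
Level of each of the 47 presynaptic genes (rows, grouped by role) in each of the 9 libraries (columns), as log2(CPM + 0.1) minus the gene's mean over the libraries, with colours capped at the ends of the scale. Most genes are below their mean in the 3 layer A libraries, Syn3, Sv2c and the rare Cplx3 are above it, and the third layer B library is the highest of its layer for 32 genes.

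Proteins of the vesicle membrane included Syp, Synpr, Sv2b, Syngr3 and Syngr1, with 5 of 7 genes lower in layer A than layer B and 5 of 7 lower than in layer C. Syp (ENSMUST00000069520, chromosome X from 7638471 to 7653256 on the plus strand) encodes synaptophysin, an abundant four-span protein of the vesicle membrane. It had 77.7, 137 and 149 CPM in layer A, 405, 342 and 397 CPM in layer B and 472, 293 and 359.6 CPM in layer C. Every layer A library lay below every other library. The difference passed against layer B (log2 fold change -1.65, SE 0.31, edgeR adjusted p = 0.0025) and against layer C (log2 fold change -1.63, SE 0.31, edgeR adjusted p = 0.00561). Syp shares 33.8% of its exon bases with a gene on the opposite strand. Synpr (ENSMUST00000112656, chromosome 14 from 13454029 to 13615459 on the plus strand), which encodes the related synaptoporin, had 5.67, 8.15 and 6.33 CPM in layer A, 34.9, 24.6 and 48.6 CPM in layer B and 17.8, 19.3 and 32.7 CPM in layer C. Its layer A libraries were also the lowest of all 9, and it had the smallest p of the genes lower than in layer B (log2 fold change -2.42, SE 0.36, edgeR adjusted p = 0.000545). Against layer C its log2 fold change was -1.80 (edgeR adjusted p = 0.00625).

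Sv2b, Syngr3 and Syngr1 followed. Sv2b (ENSMUST00000165175, chromosome 7 from 75114894 to 75309262 on the minus strand), which encodes a vesicle glycoprotein with the fold of a transporter, had 63.1, 118 and 105 CPM in layer A, 363, 295 and 454 CPM in layer B and 440.0, 433 and 267 CPM in layer C. All layer A values were below all others. Its difference had the smallest p of the genes lower than in layer C (log2 fold change -1.997, SE 0.33, edgeR adjusted p = 0.00278) and also passed against layer B (log2 fold change -1.96, SE 0.33, edgeR adjusted p = 0.00116). Syngr3, a synaptogyrin gene, had 12.6, 17.1 and 21.8 CPM in layer A, 48.4, 50.8 and 79.6 CPM in layer B and 52.3, 37.7 and 50.5 CPM in layer C. Its layer A libraries were the lowest of the 9, with log2 fold changes of -1.79 (edgeR adjusted p = 0.00172) against layer B and -1.44 (edgeR adjusted p = 0.0104) against layer C. Syngr1, its paralog, had 20.7, 29.1 and 22.9 CPM in layer A, 51.3, 44.1 and 61.7 CPM in layer B and 59.6, 48.3 and 69.8 CPM in layer C, and changed by -1.11 (edgeR adjusted p = 0.0143) and -1.29 (edgeR adjusted p = 0.011). Against layer C, Syngr3 and Syngr1 did not pass without the first layer A or the first layer C library (adjusted p from 0.051 to 0.064 in edgeR), and Syp was at the threshold of 0.05 without the first layer C library. Syngr1 did not pass against layer B without the first library of layer A or of layer B (adjusted p of 0.063 and 0.060 in edgeR).

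The other two genes of this group did not pass. Sv2a, whose protein binds the antiepileptic drug levetiracetam, had 15.2, 39.3 and 30.3 CPM in layer A, 79.3, 64.2 and 40.8 CPM in layer B and 60.3, 33.6 and 90.2 CPM in layer C. Its log2 fold changes were -1.12 (edgeR adjusted p = 0.077) and -1.12 (edgeR adjusted p = 0.0965), and it passed against layer B without the third layer B library (adjusted p = 0.034 in edgeR). Sv2c, the third member of the family, had 5.84, 5.28 and 4.71 CPM in layer A, 3.66, 3.86 and 2.52 CPM in layer B and 2.58, 4.72 and 5.08 CPM in layer C. All 3 layer A libraries of Sv2c lay above the layer B libraries and overlapped those of layer C, and neither difference passed (log2 fold changes of 0.65 and 0.35, edgeR adjusted p of 0.279 and 0.64).

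**Figure D2:**
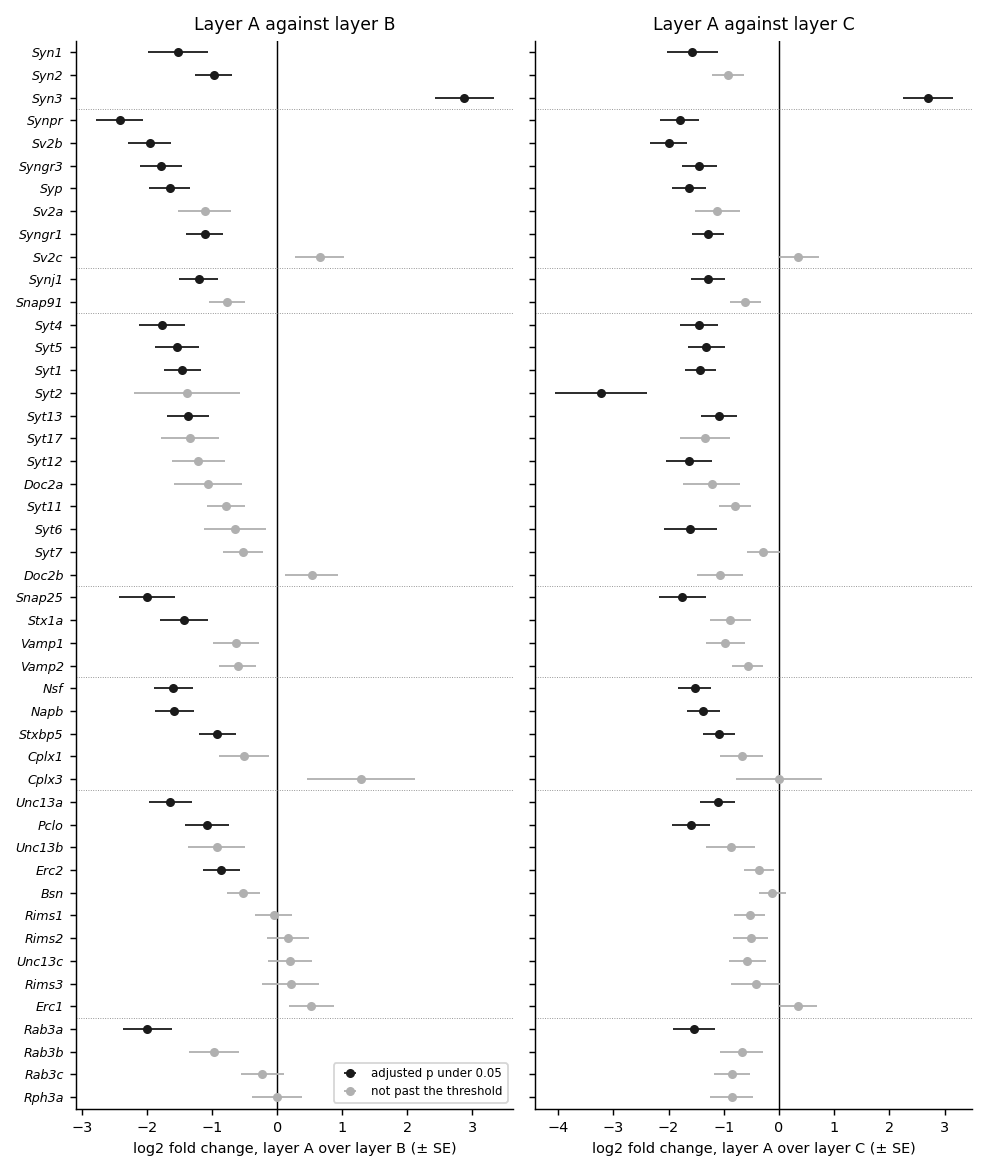
Log2 fold change of layer A over layer B (left) and over layer C (right) for each gene, with bars of 1 SE, and filled black where the edgeR adjusted p was under 0.05. Points lie mainly to the left of 0, with 21 genes past the threshold there in each panel and Syn3 alone past it on the right.

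The synapsins, phosphoproteins that hold vesicles in a reserve cluster, were split by the transcripts read. That split rests on a Syn3 transcript that shares exon bases with another gene, as given below. Syn1 (ENSMUST00000081893, chromosome X from 20860515 to 20920918 on the minus strand) had 156, 73.9 and 111 CPM in layer A, 188, 189 and 606 CPM in layer B and 316, 477 and 217 CPM in layer C. Its layer A libraries were below all others, and it passed against layer B (log2 fold change -1.53, SE 0.46, edgeR adjusted p = 0.0328) and layer C (log2 fold change -1.57, SE 0.46, edgeR adjusted p = 0.039). Without the third layer B library the log2 fold change of Syn1 against layer B was -0.68 (adjusted p = 0.209 in edgeR), and it also failed to pass there without the second or the third layer A or the first layer C library. Against layer C, Syn1 did not pass without any of 5 libraries, the 3 of layer A and the first and second of layer C (adjusted p from 0.064 to 0.162 in edgeR). Syn2 had 43.6, 73.9 and 56.4 CPM in layer A, 141, 106 and 96.7 CPM in layer B and 111, 94.2 and 123 CPM in layer C, again with layer A lowest, and it passed against layer B (log2 fold change -0.98, SE 0.29, edgeR adjusted p = 0.0311) and missed the threshold against layer C (log2 fold change -0.92, SE 0.29, edgeR adjusted p = 0.0547), where it passed without the third layer B library (adjusted p = 0.0303 in edgeR). Leaving out any of 6 libraries ended the call of Syn2 against layer B, with an adjusted p of at most 0.185 in edgeR, without the first layer B library.

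Syn3 was the only gene of the 47 called higher in layer A, and its value depended on the transcript that was read. The Syn3 transcript with the most counts (ENSMUST00000123783, chromosome 10 from 86347774 to 86491897 on the minus strand) is annotated as a retained intron. It had 154, 75.1 and 96.5 CPM in layer A, 8.18, 9.77 and 26.4 CPM in layer B and 11.9, 20.1 and 18.3 CPM in layer C, with every layer A library above every other (log2 fold change 2.88, SE 0.45, edgeR adjusted p = 0.000766, against layer B, and log2 fold change 2.69, SE 0.45, edgeR adjusted p = 0.00289, against layer C). Of its 4775 exon bases, 1733 (36.3%) are shared with Timp3, which lies on the opposite strand, nested within Syn3, and encodes an inhibitor of metalloproteinases. The study's methods give a library preparation that did not keep strand, so reads of Syn3 and Timp3 cannot be told apart there.

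The coding transcript of Timp3 (ENSMUST00000020234, chromosome 10 from 86300372 to 86349506 on the plus strand) had 283, 163 and 170.1 CPM in layer A, 13.1, 15.8 and 35.0 CPM in layer B and 25.9, 37.6 and 36.1 CPM in layer C. Its log2 fold changes were 3.27 (edgeR adjusted p = 0.000227) against layer B and 2.63 (edgeR adjusted p = 0.00205) against layer C. A protein-coding transcript of Syn3 that shares no exon base with Timp3 (ENSMUST00000120638, chromosome 10 from 86055125 to 86498856 on the minus strand) had 2.20, 2.14 and 4.91 CPM in layer A, 8.38, 10.8 and 7.24 CPM in layer B and 7.04, 8.42 and 4.67 CPM in layer C. This transcript was lower in layer A than layer B (log2 fold change -1.48, SE 0.41, edgeR adjusted p = 0.0213), the reverse of the retained-intron transcript, and did not pass against layer C (log2 fold change -1.08, SE 0.41, edgeR adjusted p = 0.105). It was chosen after the values had been seen.

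**Figure D3:**
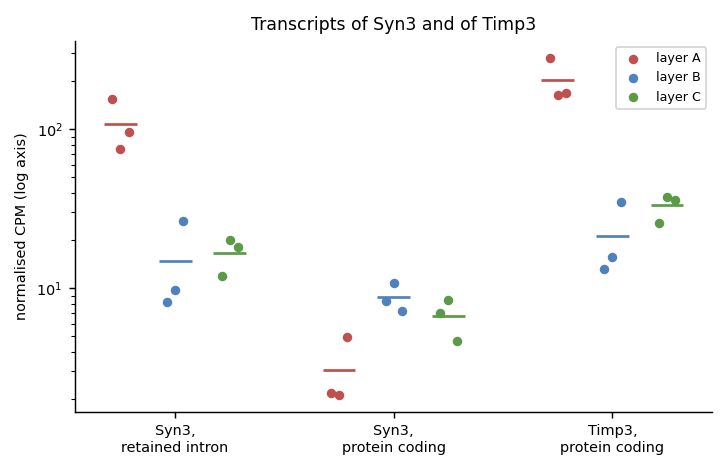
Level in CPM (log axis) of the Syn3 retained-intron transcript, the Syn3 protein-coding transcript and the Timp3 transcript in each library of layers A, B and C, with a line at each layer's mean. The retained-intron transcript and Timp3 are higher in all 3 layer A libraries than in the other 6, and the protein-coding Syn3 transcript is lower in layer A than layer B.

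Among the synaptotagmins and Doc2 proteins, which bind calcium or related ligands through paired C2 domains, 4 of 12 genes were lower in layer A than layer B and 7 of 12 than in layer C. Syt1 (ENSMUST00000105276, chromosome 10 from 108497650 to 109010975 on the minus strand), the sensor for fast synchronous release in most forebrain neurons, had 191, 252 and 265 CPM in layer A, 655, 515 and 777 CPM in layer B and 612, 602 and 687 CPM in layer C. The layer A libraries were below all others, and Syt1 passed against layer B (log2 fold change -1.46, SE 0.28, edgeR adjusted p = 0.00264) and layer C (log2 fold change -1.43, SE 0.28, edgeR adjusted p = 0.00612), also in every fit without 1 library. Syt4, Syt5 and Syt13 passed in both comparisons as well. Their log2 fold changes were -1.78, -1.54 and -1.37 against layer B and -1.45, -1.32 and -1.08 against layer C. Against layer C these 3 genes did not pass without the first or second layer A or the first layer C library, and Syt13 also without the third layer A, the first or second layer B or the third layer C library, with an adjusted p of at most 0.166 for Syt13 in edgeR. Syt4 shares 14.5% of its exon bases with an unnamed gene on the opposite strand.

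Syt2, the fast sensor of brainstem and inhibitory synapses, was scarce here. It had 0, 1 and 25 counts in layer A, 17, 20 and 71 in layer B and 135, 21 and 416 in layer C, or 0, 0.0668 and 0.623 CPM in layer A, 0.382, 0.462 and 1.48 CPM in layer B and 3.31, 1.34 and 3.54 CPM in layer C. The first and second layer A libraries were under the floor of 3 counts, so the size of its fitted change against layer C (log2 fold change -3.22, SE 0.83, edgeR adjusted p = 0.0217) rests on few counts. It was -6.10 without the third layer A library, and Syt2 did not pass without the first or second layer A or the first or the third layer C library (adjusted p from 0.061 to 0.087 in edgeR). Against layer B the change of Syt2 did not pass (log2 fold change -1.39, edgeR adjusted p = 0.286), but it was -4.27 (adjusted p = 0.0344) without the third layer A library. Syt6 and Syt12, also of low level, passed against layer C (log2 fold changes of -1.60 and -1.62, edgeR adjusted p of 0.0403 and 0.0209), while their values against layer B were -0.65 (edgeR adjusted p = 0.399) and -1.21 (edgeR adjusted p = 0.0571). Without the second layer C library Syt12 also passed against layer B (adjusted p = 0.0405 in edgeR). Against layer C, Syt6 passed in 1 and Syt12 in 4 of the 9 fits without 1 library. Leaving out any library but the third of layer B ended the call of Syt6, with an adjusted p of up to 0.188 in edgeR, without the third layer C library. For Syt12 it was any layer A library or the first or the third layer C library, with an adjusted p of up to 0.114, without the first layer C library. Syt12 shares 26.5% of its exon bases with an opposite-strand gene.

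Syt7, the slow sensor of asynchronous release and facilitation, had 61.1, 72.3 and 68.7 CPM in layer A, 112, 115 and 64.2 CPM in layer B and 97.8, 85.9 and 61.8 CPM in layer C, and the layers overlapped. Its log2 fold changes of -0.53 (edgeR adjusted p = 0.271) and -0.28 (edgeR adjusted p = 0.639) did not pass. Syt11, Syt17 and Doc2a also did not pass in either comparison, with log2 fold changes of -0.79, -1.34 and -1.07 against layer B. Syt17 was close to the threshold in both (adjusted p of 0.053 and 0.068 in edgeR). Without the third layer B library Syt17 passed against layer B and layer C (adjusted p of 0.0116 and 0.0228 in edgeR), and likewise without the second layer A library (0.0234 and 0.0385). Syt11 and Doc2b passed against layer C without the third layer B library (adjusted p of 0.0319 and 0.0478).

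Of the 4 SNARE proteins, 2 were lower in layer A than layer B and 1 than in layer C. Snap25 (ENSMUST00000028727, chromosome 2 from 136713453 to 136782428 on the plus strand), whose product contributes a pair of helices to the fusion complex, had the highest mean level per kilobase of the 47 genes. It had 585, 409 and 853 CPM in layer A, 1758, 1351 and 4302 CPM in layer B and 2387, 2361 and 1468 CPM in layer C. No layer A library reached the level of any other library, and the third layer B library was far above the other libraries of its layer. Snap25 passed against layer B (log2 fold change -2.005, SE 0.43, edgeR adjusted p = 0.0052), with a log2 fold change of -1.29 without the third layer B library, and against layer C (log2 fold change -1.75, SE 0.43, edgeR adjusted p = 0.0166). The latter call was lost without the first or second library of layer A or of layer C (adjusted p from 0.057 to 0.085 in edgeR). Stx1a, the plasma membrane syntaxin, had 10.6, 16.9 and 13.6 CPM in layer A, 46.5, 39.5 and 24.8 CPM in layer B and 29.2, 13.3 and 33.0 CPM in layer C. It passed against layer B (log2 fold change -1.43, SE 0.37, edgeR adjusted p = 0.0157) and overlapped layer C, where it did not pass (log2 fold change -0.88, edgeR adjusted p = 0.151). Without the first or the third layer A or the first layer B library its adjusted p against layer B was 0.079, 0.051 or 0.082 in edgeR. The transcript of Stx1a read here is annotated as subject to nonsense-mediated decay. A second transcript of Stx1a held 99.99% of its counts, so these counts cannot be assigned to that isoform.

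The vesicle SNAREs did not pass. Vamp2, the synaptobrevin of most central synapses, had 135, 234 and 143 CPM in layer A, 306, 232 and 243 CPM in layer B and 249.99, 256 and 253 CPM in layer C, with log2 fold changes of -0.61 (edgeR adjusted p = 0.171) and -0.57 (edgeR adjusted p = 0.241). Vamp1, its paralog, had 5.42, 5.34 and 8.15 CPM in layer A, 7.66, 8.04 and 13.9 CPM in layer B and 14.01, 9.38 and 13.8 CPM in layer C and log2 fold changes of -0.64 (edgeR adjusted p = 0.259) and -0.97 (edgeR adjusted p = 0.0976), and it passed against layer C without the third layer B library (adjusted p = 0.034 in edgeR). Both genes had all layer A libraries below all layer C libraries and overlapped layer B.

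Genes for taking apart or restraining the SNARE complex showed 3 of 5 lower in layer A in each comparison. Nsf (ENSMUST00000103075, chromosome 11 from 103821782 to 103954056 on the minus strand), the ATPase that disassembles the complex, had 119.9, 105 and 129 CPM in layer A, 309.7, 259 and 502 CPM in layer B and 341, 378 and 301 CPM in layer C. Its difference passed against layer B (log2 fold change -1.60, SE 0.30, edgeR adjusted p = 0.00241) and layer C (log2 fold change -1.53, SE 0.30, edgeR adjusted p = 0.00622), in every fit that left out 1 library. Napb (ENSMUST00000028926, chromosome 2 from 148693985 to 148732467 on the minus strand), which encodes the brain form of the SNAP adaptor that recruits NSF, had 134, 168 and 142 CPM in layer A, 413, 327 and 588 CPM in layer B and 397, 432 and 317 CPM in layer C. It likewise had its 3 lowest values in layer A (log2 fold change -1.58, SE 0.30, edgeR adjusted p = 0.00231, against layer B, and log2 fold change -1.37, SE 0.29, edgeR adjusted p = 0.00951, against layer C, where the adjusted p was 0.060 without the first layer C library). Stxbp5, which encodes tomosyn, an inhibitor of SNARE assembly, changed by -0.92 (edgeR adjusted p = 0.0363) and -1.09 (edgeR adjusted p = 0.0226). The Stxbp5 call was lost against layer B without any 1 of 7 libraries, with an adjusted p of up to 0.145 in edgeR, without the second layer A library, and against layer C without the first or second library of layer A or of layer C, with an adjusted p of up to 0.102.

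The complexins, small proteins that clamp and then promote fusion, did not pass. Cplx1 had 42.6, 45.2 and 75.9 CPM in layer A, 51.5, 49.6 and 133 CPM in layer B and 88.8, 66.6 and 106 CPM in layer C, with log2 fold changes of -0.51 (edgeR adjusted p = 0.424) and -0.67 (edgeR adjusted p = 0.319). The first and second layer B libraries of Cplx1 lay within the range of layer A, and without the third the log2 fold change against layer B was 0.16 (adjusted p = 0.782 in edgeR). Cplx3 was rare and uneven, with 17, 34 and 63 counts in layer A, 14, 27 and 58 in layer B and 38, 1 and 474 in layer C. Its layer A levels in CPM lay above those of layer B, and the differences of Cplx3 did not pass (log2 fold changes of 1.29 and 0.00, edgeR adjusted p of 0.334 and 0.998), the one against layer C being 1.71 without the third layer C library.

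The active zone differed from the vesicle proteins in that fewer of its genes passed, 3 of 10 against layer B and 2 of 10 against layer C, with group medians of -0.29 and -0.52. Whether the groups differ was not tested. Unc13a (ENSMUST00000030170, chromosome 8 from 71624417 to 71671757 on the minus strand), which encodes Munc13-1, the main priming factor of excitatory synapses, had 19.6, 36.1 and 30.7 CPM in layer A, 98.0, 112 and 60.9 CPM in layer B and 75.1, 58.9 and 53.0 CPM in layer C. Every layer A library was below every other, and the difference passed against layer B (log2 fold change -1.65, SE 0.33, edgeR adjusted p = 0.00329) and layer C (log2 fold change -1.11, SE 0.32, edgeR adjusted p = 0.0376). Against layer C the call of Unc13a was lost in 7 of the 9 fits, all but those without the second or the third layer B library, with an adjusted p of up to 0.182 in edgeR, without the first layer C library. Pclo (ENSMUST00000030691, chromosome 5 from 14514918 to 14863459 on the plus strand), which encodes the scaffold Piccolo, had 218, 114 and 195 CPM in layer A, 313, 380.4 and 417 CPM in layer B and 441, 772 and 375 CPM in layer C. It passed against layer C (log2 fold change -1.59, SE 0.34, edgeR adjusted p = 0.00951; 0.051 without the second layer A library) and against layer B (log2 fold change -1.07, SE 0.34, edgeR adjusted p = 0.0404). The latter call was lost in 7 of the 9 fits, all but those without the second or the third layer C library, with an adjusted p of up to 0.176 in edgeR, without the second layer A library.

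Bsn, which encodes Bassoon, the partner scaffold of Piccolo, did not pass. It had 239, 250.1 and 256 CPM in layer A, 344, 376 and 347 CPM in layer B and 269, 266 and 275 CPM in layer C. Layer A lay below layer C, and layer C below layer B, without overlap. The log2 fold changes of Bsn, -0.52 against layer B and -0.12 against layer C, missed the threshold (adjusted p of 0.179 and 0.829 in edgeR). Erc2, which encodes the ELKS protein CAST, had 80.7, 70.9 and 68.8 CPM in layer A, 116, 114 and 169.9 CPM in layer B and 99.4, 107 and 76.9 CPM in layer C. It passed narrowly against layer B (log2 fold change -0.86, SE 0.28, edgeR adjusted p = 0.0467) and did not pass in any of the 9 fits without 1 library, where the log2 fold change ranged from -0.93 to -0.59. Its paralog Erc1, which is expressed in many tissues, had 90.8, 42.1 and 34.8 CPM in layer A, 40.5, 43.1 and 32.5 CPM in layer B and 44.8, 52.8 and 34.7 CPM in layer C and did not pass (log2 fold changes of 0.53 and 0.34, edgeR adjusted p of 0.356 and 0.622). Without the first layer A library, which was the highest of the 9 for Erc1, the values were -0.0068 and -0.19. Erc1 shares 23.0% of its exon bases with an opposite-strand gene.

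The RIM genes, whose products tether vesicles and calcium channels, did not pass in either comparison. Rims1 had 98.98, 91.3 and 64.7 CPM in layer A, 88.0, 81.4 and 94.7 CPM in layer B and 116, 154 and 98.1 CPM in layer C. Rims2 had 21.1, 22.5 and 13.6 CPM in layer A, 14.9, 19.1 and 16.6 CPM in layer B and 22.9, 37.7 and 21.2 CPM in layer C. The layer A libraries of both overlapped those of layers B and C. Rims3, a short family member, had 3.89, 9.15 and 6.51 CPM in layer A, 3.91, 4.13 and 8.95 CPM in layer B and 6.40, 6.83 and 12.9 CPM in layer C. Against layer B the log2 fold changes of the 3 genes were -0.05, 0.17 and 0.21, and against layer C -0.53, -0.52 and -0.42, with no adjusted p under 0.276 in edgeR. Near 0, the sign against layer B turned for Rims1 without the third layer A, the third layer B or the third layer C library (0.13, 0.058 and 0.0026) and for Rims3 without the second layer A library (-0.10), and that of Rims3 against layer C without the third layer C library (0.0072). The other Munc13 genes did not pass either. Unc13b had 22.9, 10.2 and 22.1 CPM in layer A, 26.1, 36.2 and 43.0 CPM in layer B and 36.0, 52.2 and 13.04 CPM in layer C. Unc13c, best known from cerebellar granule cells, had 41.6, 33.1 and 14.9 CPM in layer A, 25.1, 27.9 and 25.2 CPM in layer B and 39.97, 48.5 and 44.3 CPM in layer C. Their log2 fold changes were -0.93 (edgeR adjusted p = 0.177) and 0.19 (edgeR adjusted p = 0.764) against layer B, and that of Unc13c was -0.12 without the first layer A library.

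Of the Rab3 GTPases, which sit on the vesicle membrane, and their effector rabphilin, 1 of 4 genes was lower in layer A in each comparison. That gene was Rab3a (ENSMUST00000110093, chromosome 8 from 70754679 to 70758677 on the plus strand), the main Rab3 of brain, with 11.4, 26.9 and 27.8 CPM in layer A, 100.05, 70.1 and 94.3 CPM in layer B and 67.5, 39.2 and 85.6 CPM in layer C. All layer A values were below all others (log2 fold change -1.996, SE 0.38, edgeR adjusted p = 0.00261, against layer B, and log2 fold change -1.54, SE 0.38, edgeR adjusted p = 0.017, against layer C). The latter call was lost without the first layer A or the first or the third layer C library (adjusted p from 0.067 to 0.079 in edgeR). Rab3b had 13.04, 11.8 and 19.3 CPM in layer A, 29.1, 25.8 and 31.9 CPM in layer B and 20.4, 11.6 and 38.5 CPM in layer C, below layer B in every layer A library, without passing (log2 fold changes of -0.97 and -0.68, edgeR adjusted p of 0.104 and 0.308). Rab3c had 256, 179.6 and 97.6 CPM in layer A, 203, 185 and 236 CPM in layer B and 259, 350.2 and 350.0 CPM in layer C, and its log2 fold changes were -0.23 (edgeR adjusted p = 0.701) and -0.85 (edgeR adjusted p = 0.12). Without the third layer A library the value of Rab3c against layer B was 0.083. Rph3a had 97.1, 50.2 and 61.1 CPM in layer A, 45.4, 42.5 and 119.7 CPM in layer B and 121, 135 and 121 CPM in layer C. Every layer A library lay above the first and second layer B libraries and below the third, with a log2 fold change of 0.00 (edgeR adjusted p = 0.996) against layer B and -0.86 (edgeR adjusted p = 0.184) against layer C. Without the third layer B library the log2 fold change of Rph3a against layer B was 0.71 (adjusted p = 0.127 in edgeR), and Rph3a passed against layer C (adjusted p = 0.042). Without the first layer A library the value against layer B was -0.31.

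Vesicle recycling was represented by Synj1 and Snap91. Synj1 encodes synaptojanin, a phosphatase with a part in the shedding of the clathrin coat from new vesicles. Synj1 had 102, 92.2 and 108 CPM in layer A, 197, 172 and 329 CPM in layer B and 215, 279 and 244 CPM in layer C. It passed against layer B (log2 fold change -1.20, SE 0.30, edgeR adjusted p = 0.0118; adjusted p = 0.057 without the second layer A library) and layer C (log2 fold change -1.28, SE 0.30, edgeR adjusted p = 0.0135; 0.062 without the second layer A and 0.056 without the first layer C library). Snap91, which encodes the clathrin adaptor AP180, had 33.2, 45.0 and 31.3 CPM in layer A, 75.7, 59.1 and 51.8 CPM in layer B and 52.9, 52.1 and 62.2 CPM in layer C. Its layer A libraries were below all others, and neither difference passed (log2 fold changes of -0.77 and -0.61, edgeR adjusted p of 0.075 and 0.19), although the one against layer B did without the third layer B library (adjusted p = 0.049 in edgeR).

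Between layers B and C, the question was whether the layers other than A differed in these genes. No gene passed at an adjusted p under 0.05 in edgeR or in DESeq2. Of all 56416 transcripts 0.0% passed in edgeR and 124 in number in DESeq2. Without the third layer B library, 17 of 55684 transcripts passed in edgeR. At an unadjusted p under 0.05 the number was 5316 in that fit, against 2316 with all libraries. This comparison thus depended on that library, although none of the 47 genes passed in any fit without 1 library. At an unadjusted p under 0.05 in edgeR, 5 genes were found, beside 4.11% of all transcripts, and all 5 were lower in layer B. Doc2b, a high-affinity calcium sensor of spontaneous release, had the smallest p. It had 8.04, 3.41 and 7.03 CPM in layer A, 3.46, 3.23 and 6.10 CPM in layer B and 12.7, 17.2 and 8.95 CPM in layer C, with every layer B library below every layer C library (log2 fold change of B over C -1.60, unadjusted p = 0.00148, adjusted p = 0.541 in edgeR). The other 4 were Syt2, Unc13c, Rph3a and Rims2, with log2 fold changes of -1.83, -0.76, -0.86 and -0.69 and unadjusted p of 0.0259, 0.0395, 0.0411 and 0.0489 in edgeR. In 7 genes (Syt6, Doc2b, Rims1, Rims2, Unc13c, Rab3c and Rph3a) every layer B library was below every layer C library, beside 4.67% of all transcripts. In 2 (Bsn and Erc2) every layer B library was above, beside 3.92% of all. The median log2 fold change of the 47 genes was 0.00, beside 0.07 for all transcripts.

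Ratios of paralogs within a library do not depend on how that library was scaled, and 16 ratios of counts per kilobase were formed. They are given as a description, with no test. In 2 of the 16, layer A lay apart from all libraries of both other layers. Several ratios share a gene, and no share over other pairs of genes was formed to set beside this count. The first was Syn3 to Syn1, which reads the Syn3 transcript that overlaps Timp3. The second was Erc2 to Erc1, with log2 ratios of 0.29, 1.21 and 1.44 in layer A, 1.97, 1.86 and 2.84 in layer B and 1.61, 1.48 and 1.61 in layer C. The brain form thus took the largest share in layer B, an intermediate one in layer C and the smallest in layer A, without overlap. The highest layer A ratio, 1.44, and the lowest layer C ratio, 1.48, lay close together. Part of Erc1 is shared with another gene, as given above.

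For the Munc13 genes, the log2 ratio of Unc13c to Unc13a was 1.71, 0.50 and -0.42 in layer A, -1.34, -1.37 and -0.64 in layer B and -0.28, 0.35 and 0.37 in layer C. Layer B was below all libraries of both other layers, and layers A and C overlapped. Rab3c to Rab3a was also lowest in layer B, with 1.93, 0.19 and -0.74 in layer A, -1.53, -1.15 and -1.23 in layer B and -0.61, 0.61 and -0.52 in layer C. Doc2b to Doc2a was also lowest in layer B, at -1.41, -1.63 and -1.76, against 1.44, -0.69 and -0.54 in layer A and -0.33, 1.42 and -1.28 in layer C. Doc2a shares 37.5% of its exon bases with an opposite-strand gene.

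Layer A lay above layer B without overlap for Sv2c to Sv2a (-2.45, -3.96 and -3.75 against -5.50, -5.12 and -5.08) and for Rab3b to Rab3a (-1.02, -2.39 and -1.73 against -2.99, -2.65 and -2.77). It lay below layer B for Sv2b to Sv2a (1.70, 1.23 and 1.44 against 1.84, 1.85 and 3.12). Layers B and C were apart for Syt2 to Syt1, with -11.21, -10.60 and -9.54 in layer B and -8.04, -9.29 and -8.11 in layer C, and for Syngr3 to Syngr1, with 1.00, 1.29 and 1.46 and 0.90, 0.73 and 0.62. The ratios of Syn2 to Syn1, Synpr to Syp, Vamp1 to Vamp2, Rims2 to Rims1, Rims3 to Rims1 and Unc13b to Unc13a overlapped among all 3 layers. The Rims2 to Rims1 ratio varied least, between -2.13 and -1.59 over the 9 libraries.

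**Figure D4:**
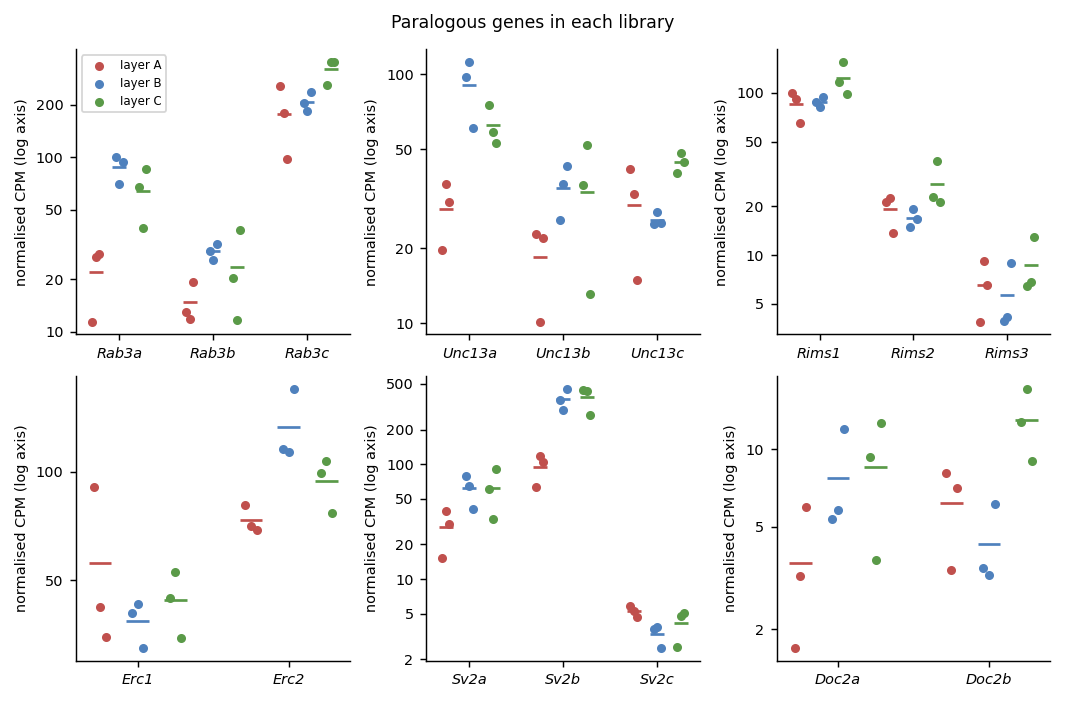
Level in CPM (log axis) of the Rab3, Munc13, RIM, ELKS, SV2 and Doc2 family members in each library, coloured by layer, with a line at each layer's mean. Rab3a, Unc13a and Sv2b are lower in all layer A libraries, while Rab3c, Unc13c and the Rims genes overlap between layers A and B.

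**Figure D5:**
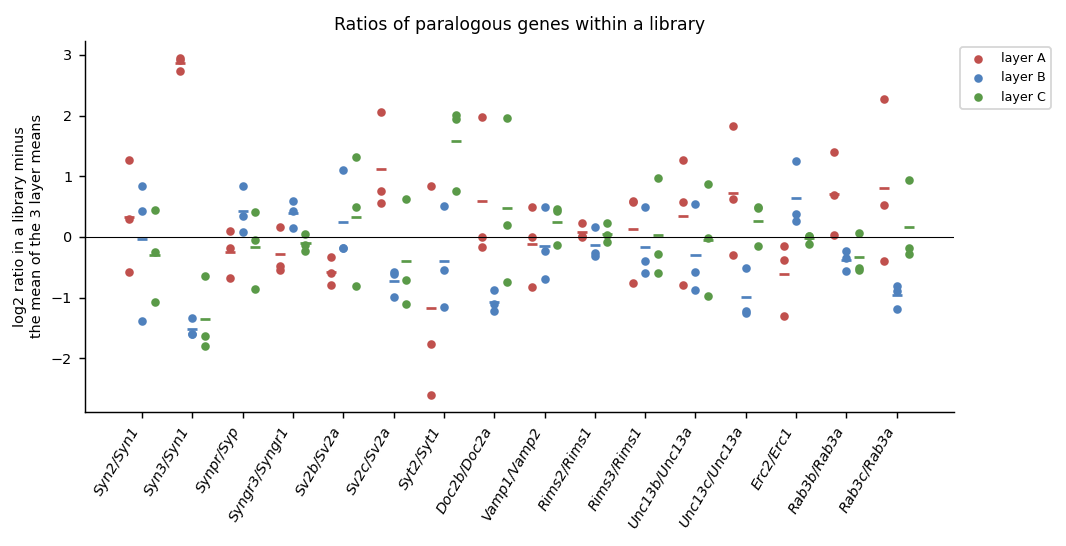
Log2 ratio of counts per kilobase of paralogous genes in each library, minus the mean of the 3 layer means, with a line at each layer's mean. Unc13c/Unc13a, Rab3c/Rab3a and Doc2b/Doc2a are lowest in the 3 layer B libraries, and Erc2/Erc1 is ordered B, C, A without overlap.

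Each library was also set relative to the geometric mean of its 8 pan-neuronal markers, a scaling chosen after the data had been seen. Map2 is part of this reference and ran against the other 7 markers, with log2 fold changes of 0.66 and 0.28 against layers B and C. It thus raised the reference of layer A, and the scale was not formed without it. Which of the genes below would stay apart on such a scale was not tested. On this scale 8 of 46 genes were lower in every layer A library than in every library of layers B and C, beside 0.938% of all tested transcripts. They were Syp, Syngr3, Sv2b, Syt1, Syt4, Syt5, Snap25 and Nsf, with differences in mean log2 level from -1.05 (Sv2b) to -0.52 (Syt1) against layer B and from -1.16 (Sv2b) to -0.53 (Syt5) against layer C. Syn3, in the transcript that overlaps Timp3, and Sv2c were higher in every layer A library, beside 31.2% of all transcripts. The other 36 overlapped, among them Synpr, Rab3a and Unc13a, whose layer A libraries lay below layers B and C under the scaling used elsewhere. The mean differences of Synpr and Rab3a against layer B were -1.45 and -1.15 on this scale, larger in size than those of the 8 genes above, with libraries that overlapped those of layer C. Syt2 was left out because a library had no counts.

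A further 47 presynaptic genes that were not on the list were read in the same fit, and 46 had enough counts. Against layer B, 18 were lower in layer A, 5 were higher and 23 did not pass, and against layer C the counts were 16, 1 and 29. Among all tested transcripts, 5.83% were lower and 10.7% higher in layer A than layer B. Against layer C these shares were 4.35% and 6.98%. The numbers higher in layer A were thus no more than near the share of all transcripts. Sh3gl2 and Dnm1 were among those lower than in layer B with the smallest p. Sh3gl2, which encodes endophilin A1 of vesicle endocytosis, had 33.0, 34.3 and 46.4 CPM in layer A, 123, 98.3 and 342 CPM in layer B and 138, 136 and 138 CPM in layer C (log2 fold change -2.31, SE 0.41, edgeR adjusted p = 0.00165, against layer B). Dnm1, which encodes the neuronal dynamin of vesicle fission, had 34.5, 53.0 and 69.1 CPM in layer A, 158, 166 and 161 CPM in layer B and 158, 131 and 137 CPM in layer C (log2 fold change -1.63, SE 0.30, edgeR adjusted p = 0.00189). In both the layer A libraries were the lowest of the 9.

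The smallest p among those higher in layer A belonged to Vamp3, Snap23 and Syngr2, which are relatives of Vamp2, Snap25 and Syngr1 found in many cells outside the nervous system. Vamp3 had 29.5, 22.6 and 13.4 CPM in layer A, 4.51, 4.13 and 5.43 CPM in layer B and 6.33, 9.44 and 7.24 CPM in layer C (log2 fold change 2.21, SE 0.36, edgeR adjusted p = 0.000941, against layer B). Snap23 had 24.2, 10.7 and 9.50 CPM in layer A, 2.70, 2.77 and 3.29 CPM in layer B and 3.56, 9.70 and 2.33 CPM in layer C (log2 fold change 2.33, edgeR adjusted p = 0.00613). Syngr2 had 1.19, 2.20 and 2.69 CPM in layer A, 0.337, 0.231 and 0.729 CPM in layer B and 0.466, 0.447 and 1.01 CPM in layer C (log2 fold change 2.24, edgeR adjusted p = 0.0168). Vamp3 and Syngr2 had their 3 highest values in layer A, and Snap23 overlapped layer C. The counts of these further genes rested on single libraries. The 18 lower than in layer B were 9 without the first layer A and 11 without the first layer B library, and the 5 higher were 2 or 3 without the first or the third layer A or the first or second layer B library. The 16 lower than in layer C were 0 without the first layer C library, 5 without the first or the second layer A, 10 without the third layer A and 9 without the second layer C library. Vamp3 was the only gene higher than in layer C, and that count was 0 without the first layer A or the first layer C library and 4 without the third layer B library.

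Compared per length of transcript, the genes spanned a wide range of levels. Snap25 led, with a mean of 813 CPM per kilobase over the libraries, followed by Syp at 112.9, Syt1 at 105, Vamp2 at 103.4 and Syn1 at 80.8. Syt2 was the lowest, at 0.181 CPM per kilobase. In layer A the mean levels per kilobase were 291 for Snap25, 77.3 for Vamp2, 48.9 for Syt1 and 46.8 for Syp, against 1168, 118, 135 and 147 in layer B. Vamp2 thus stood second in layer A and below Syp and Syt1 in layer B. Within the Rab3 family, Rab3a exceeded Rab3c per kilobase in layer B (61.1 against 24.7), while in layer A their order was the reverse in the means (15.3 against 21.0) and differed between libraries. For 14 of the 47 genes a second transcript held at least 99% of the counts of the one read, so that the isoform cannot be told from these counts.

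The promoters of these genes were examined because many of the genes were low together in layer A. RefSeq windows of 300 bases on GRCm38.p6, from 250 before to 50 after the start, were found for 34 of the 47 genes. The motifs searched, on both strands, were the cAMP response element TGACGTCA and its shorter form TGACG, which the full element contains, the NRF1 motif, the left and right parts of the RE1 silencer, TTCAGCACC and GGACAGC, and the GC box GGGGCGGGG. The GC box was in 16 of 34 windows (11.4% of all 32851 windows). The full cAMP element was in 1 (1.79%), its shorter form in 8 (20.8%), the NRF1 motif in 2 (0.971%), the left RE1 part in 2 (0.371%) and the right RE1 part in 3 (6.56%). The windows of Erc1, Rims3 and Unc13c lie 22924, 6978 and 35470 bases from the start of the transcript read, and all 3 are among the 16 with a GC box. The 34 windows had a median of 19.5 CG dinucleotides, beside 7 in all windows. For genes lower in layer A than in both other layers, 7 of 13 windows held a GC box. For genes that passed in neither comparison, 7 of 16 did, and the distant windows of Erc1, Rims3 and Unc13c are all among these 7. In the same 2 sets the shorter cAMP form was in 4 and 3 windows, the NRF1 motif in 1 and 1. The left RE1 part was in 2 and 0, and the right in 1 and 1. Whether the sets differ was not tested. A match is a description of these letters and not evidence of a bound factor.

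The 250 bases before the start, from RefSeq and read on the strand of the gene, are shown for 4 genes, with matches to the motifs in capitals. Syn1 and Unc13a are shown because they hold the left RE1 part and were low in layer A, and Rab3a and Rab3c because these paralogs gave different results. The left RE1 match of Unc13a lies in the 50 bases after the start and is not shown. Its window also holds the right RE1 part, likewise not within the bases shown, whereas that of Syn1 holds the left part only. The last 24 bases of the Rab3a stretch lie within the transcript read here.
Syn1, chrX:20920919-20921168, minus strand: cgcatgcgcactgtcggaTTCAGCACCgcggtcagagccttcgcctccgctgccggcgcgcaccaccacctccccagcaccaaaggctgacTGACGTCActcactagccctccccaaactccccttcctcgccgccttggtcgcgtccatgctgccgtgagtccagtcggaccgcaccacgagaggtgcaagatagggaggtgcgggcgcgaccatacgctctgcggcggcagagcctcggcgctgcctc
Unc13a, chr8:71671758-71672007, minus strand: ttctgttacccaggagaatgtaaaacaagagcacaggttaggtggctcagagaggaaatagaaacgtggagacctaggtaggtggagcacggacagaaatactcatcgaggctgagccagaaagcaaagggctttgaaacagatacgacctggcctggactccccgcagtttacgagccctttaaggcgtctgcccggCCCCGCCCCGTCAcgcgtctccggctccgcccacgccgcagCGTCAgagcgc
Rab3a, chr8:70754453-70754702, plus strand: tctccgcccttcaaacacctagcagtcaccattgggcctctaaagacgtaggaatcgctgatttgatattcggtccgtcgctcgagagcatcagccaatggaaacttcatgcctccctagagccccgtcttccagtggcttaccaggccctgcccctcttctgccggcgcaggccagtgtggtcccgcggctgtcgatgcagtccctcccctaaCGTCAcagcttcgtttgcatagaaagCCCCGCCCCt
Rab3c, chr13:110280207-110280456, minus strand: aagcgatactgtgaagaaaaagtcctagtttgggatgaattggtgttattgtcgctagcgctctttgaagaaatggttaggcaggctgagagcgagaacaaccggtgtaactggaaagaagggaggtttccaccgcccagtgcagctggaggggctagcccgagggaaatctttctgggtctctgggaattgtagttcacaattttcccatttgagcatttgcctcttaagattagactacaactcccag

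In the Syn1 stretch, the left RE1 part lies from -232 to -224 and the full cAMP element from -159 to -152, counted from the start. In Unc13a the capitals mark a GC box from -52 to -44, which overlaps the first of the shorter cAMP elements from -44 to -40 and from -11 to -7. In Rab3a they mark the shorter element from -36 to -32 and a GC box from -10 to -2, and all these matches are on the opposite strand. The Rab3c stretch holds none of the 6 motifs, and its 300-base window had 11 CG dinucleotides against 18 for Rab3a, 27 for Unc13a and 33 for Syn1.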

How the data were processed

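RNA of laser-captured layers was amplified with a NuGEN Ovation kit and sequenced from libraries that did not keep strand. The authors deposited whole-number counts of reads per Ensembl transcript and sample, and the submitters' processing notes name bcl2fastq 1.8.4, Bowtie, HTSeq 0.5.3 and the mm10 build. The handling of reads shared by transcripts is not given in the sources used here. Of 95533 identifiers, 82807 (86.7%) were found in the annotation. The 56416 transcripts that reached 10 counts in 3 or more of the 9 samples were fitted together with edgeR 4.0.16 (R 4.3.3) using TMM factors, a quasi-likelihood test for each pair of layers and Benjamini-Hochberg adjustment over all of them, with a threshold of 0.05. The SE was taken as the absolute log2 fold change over the root of the F statistic. Alternatives were DESeq2 1.42.0, other scalings, filters and features, 6-sample fits, a replicate block and leaving out each library. Paralog ratios had 0.5 counts added. Figures were drawn with matplotlib 3.10.9.

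Values in every library were given for the 8 genes with the smallest p past the threshold in each direction against layers B and C, the 5 with the smallest unadjusted p between layers B and C, the paralog families, and up to 3 further presynaptic genes in each direction, of which 1 is not reported here. Other genes were added to complete a role group. The genes and lists were chosen with earlier results of these data known. Reads carried no molecular identifiers, so the floor of 3 counts covers counting error only.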

Additional observations from a re-analysis of the deposited data

How the results depend on the processing

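The counts of genes lower in layer A than layer B ran from 16 in fits of the 6 samples compared to 23 with DESeq2 or with 1 transcript per gene, and DESeq2 gave 23 against layer C. With library sizes free of mitochondrial counts they were 19 and 18. Leaving out 1 library in turn gave 5 to 27 genes lower than in layer C and 12 to 27 that differed among the layers. The median log2 fold change minus that of all transcripts was -0.86 against layer B, -0.96 with no filter on low counts, -0.98 with counts summed by gene and -0.97 to -0.76 with 1 library left out. Those leave-out ranges were -1.16 to -0.93 against layer C and -0.20 to 0.059 between layers B and C. Of the further presynaptic genes, leaving out 1 library gave 2 to 7 higher and 9 to 19 lower than in layer B, and 0 to 4 higher and 0 to 19 lower than in layer C. The 1 higher than in layer C became 3 with DESeq2 and 2 with library sizes free of mitochondrial counts, no filter, 10 counts in all 9 samples, gene sums, 1 transcript per gene or the 6 samples compared. Syn3 reversed in its transcript that shares no exon base with Timp3, to -1.48 and -1.08 against layers B and C. The cause of the other shifts was not tested. Genes at a few counts, such as Syt2, are limited by depth.

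Same-numbered libraries did not deviate together (9 pairs, correlations of -0.186 to 0.243, 4 over 0.1, and 2 of 9 libraries best matched by their own number). With the replicate block, 17 genes were lower than in layer B, 20 lower than in layer C and 20 differed among the layers.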
